A study of Homo sapiens with 9 samples.

Results

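The 6 DNA mismatch repair genes MSH3, MSH6, MLH3, PMS1, PMS2 and EXO1 were followed in RNA of HT-29 cells, an established human colon adenocarcinoma line with epithelial features. They were taken by gene symbol from a count table of 62710 gene identifiers, and 6 of 6 were found and passed the filter on low counts. The table holds 9 libraries of wild-type (WT) HT-29 cells. In 3 of them the cells were left non-stimulated, in 3 they received ADP-heptose, a bacterial sugar nucleotide that activates the kinase ALPK1 inside the cell, and in 3 they received flagellin, the bacterial protein sensed by the surface receptor TLR5. Both stimuli were given at 500 ng/mL for 2.5 h, so the measurements describe an early response of a tumour line, and the comparisons ask whether the repair transcripts differ between the conditions.

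Mismatch repair removes bases that DNA polymerase paired wrongly and small loops left by slippage in repeats. MutS proteins recognise the error, MutL proteins are recruited and cut the new strand, and exonucleases such as EXO1 remove the stretch that contains the error before polymerase delta fills the gap and ligase I seals it. In the colon epithelium, inherited loss of mismatch repair underlies Lynch syndrome, and tumours without it accumulate length changes in short repeats, called microsatellite instability. The recognition genes are MSH6, whose product defines the MutSα complex for base mismatches and very small loops, and MSH3, whose product defines MutSβ for larger loops. PMS2 encodes the nicking subunit of MutLα, the main MutL complex of repair, PMS1 encodes a MutL protein whose own part in repair is less clear, and MLH3 encodes the subunit of MutLγ, best known from meiotic crossing over.

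In GENCODE release 29 (GRCh38) the genes are protein coding and lie on 5 chromosomes. MSH3 (ENSG00000113318) spans chr5:80654648-80876460 on the plus strand and MSH6 (ENSG00000116062) chr2:47695530-47810101 on the plus strand. MLH3 (ENSG00000119684) spans chr14:75013764-75051532 on the minus strand, PMS1 (ENSG00000064933) chr2:189784085-189877629 on the plus strand, PMS2 (ENSG00000122512) chr7:5973239-6009125 on the minus strand and EXO1 (ENSG00000174371) chr1:241847967-241895148 on the plus strand. MSH6 and MLH3 have the longest annotated exons of the set, 10.99 kb and 8.36 kb in all, while the exons of the other genes add up to between 3.94 kb and 5.45 kb.

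Many genes of DNA replication and repair are controlled by E2F transcription factors, which couple them to S phase. The RefSeq promoter windows of the 6 genes (GRCh38.p14, 250 bases before to 50 after each annotated start) were therefore searched on both strands for 3 forms of the E2F letters, TTTCGCGC, TTTGGCGC and TTTCCCGC. Stretches of 30 bases around the matches are shown because they are what MSH3, MSH6 and EXO1 have in common at this level, with the matched letters in capitals.
MSH3, chr5:80654536-80654565, plus strand: gcggtcaagTTTGGCGCGAAAttgtggccg
MSH6, chr2:47783137-47783166, plus strand: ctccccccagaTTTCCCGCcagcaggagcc
EXO1, chr1:241848197-241848226, plus strand: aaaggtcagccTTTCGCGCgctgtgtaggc
In MSH3 the capitals hold 2 of the forms on opposite strands, which overlap in their middle letters, and they lie 107 to 96 bases before the start. The MSH6 match begins 3 bases and the EXO1 match 4 bases after the start, inside the transcribed sequence. MSH6 has 4 and EXO1 2 RefSeq windows, and the match is in 1 of them in each gene. None of these letters was found in the windows of MLH3, PMS1 or PMS2. Across RefSeq, 961 of 35116 windows (2.74%) and 902 of 27305 genes (3.3%) held at least 1 of the 3 forms, and no binding was measured here.

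The libraries held 30770448 to 38304035 counts in the non-stimulated and flagellin groups and 50054773 to 58272772 in the ADP-heptose group, with a mitochondrial share of 7.306% to 8.31%. Of the 9 markers of intestinal epithelial cells, EPCAM (914 to 1030 CPM, counts scaled to a fixed library total) and KRT8 (4270 to 5830 CPM) were high in every library, whereas CDX1 had at most 12 and CDX2 at most 48 counts. The leukocyte markers PTPRC and CD3E had at most 2 counts, the endothelial markers PECAM1 and VWF at most 4, and the fibroblast markers COL1A2 and DCN were listed at 0, while LYZ (340 to 449 CPM) and COL1A1 (12.7 to 17.5 CPM) were detected. The third ADP-heptose library was unlike its 2 replicates: over 11040 genes, the SD of its log2 differences was 0.363 from replicate 1 and 0.371 from replicate 2, against 0.109 between those and 0.131 to 0.165 among the other pairs of a group. Among the markers, KRT20 (log2 fold change 0.40, edgeR adjusted p = 0.000941) and COL1A1 (0.41, adjusted p = 0.0311) were higher in ADP-heptose than in non-stimulated cells. KRT20 was the epithelial marker called of 8 tested, whose values ran from -0.95 (CDX2, adjusted p = 0.19) to 0.45 (KRT18, 0.096). EPCAM (0.056), CDH1 (0.0118) and VIL1 (-0.0049) were near 0. The summed level of the 9 epithelial markers ran from 8550 to 11000 CPM against 8340 to 8590 CPM. KRT8 and KRT18 (1590 to 2610 CPM) were the largest parts of this sum. The summed leukocyte markers, nearly all LYZ, ran from 340 to 413 CPM against 412 to 437 CPM. CPM rests on library totals, and in the edgeR fit LYZ did not differ (log2 fold change -0.0029, adjusted p = 0.983). The part of the KRT20, COL1A1 and summed epithelial differences in the results below was not tested. The study describes the libraries of a group as independent experiments, and nothing says whether equal replicate numbers mark the same experiment.

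Levels were compared as normalized counts, which are counts scaled to a common effective library size. Each of the 6 genes was well covered, with 558 counts in the poorest case (PMS1 in flagellin replicate 3) and 3553 in the best (MSH6 in ADP-heptose replicate 2). In the non-stimulated cells the highest level per kilobase of the principal transcript belonged to MSH6, at 395 ± 4.7 normalized counts per kb (SD, n = 3). PMS2 followed at 377 ± 10, then EXO1 at 334 ± 11 and MSH3 at 333 ± 16, PMS1 at 250 ± 11 and MLH3 at 99.7 ± 3.2. EXO1 (327 to 347) and MSH3 (316 to 348) overlapped on this scale, while the other neighbours in the order did not. Per kilobase of all annotated exons, the order was MSH3 at 289 ± 14, EXO1 at 280 ± 9.2, PMS2 at 274 ± 7.3, MSH6 at 269 ± 3.2, PMS1 at 148 ± 6.5 and MLH3 at 94.1 ± 3.0 (SD, n = 3), so the place of MSH6 depends on the length used, and PMS1 and MLH3 were the lowest on both scales. On the second scale neighbours among the first 4 genes differed by less than the larger of their SDs.

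ADP-heptose stimulation was accompanied by lower PMS2 and MSH6 transcript levels. Relative to non-stimulated cells PMS2 fell by 21.7% and MSH6 fell by 20.9%, and the 4 other genes had fitted differences of -15.8% to -7.32% without passing the test. The call was edgeR's quasi-likelihood test with a Benjamini-Hochberg adjusted p under 0.05 over 17412 genes in a fit of all 9 libraries. It was met by 2 of the 6 genes, both lower, against 4.42% of all tested genes that were called lower and 7.48% called higher. Among the 4469 tested genes within the abundance range of these 6, 6.2% were called lower and 7.65% higher. At an unadjusted p under 0.05, 4 of the 6 genes were lower, against 11.5% of all tested genes. The median log2 fold change of the 6 genes was -0.24, compared with 0.0087 over all genes tested. The study's threshold of at least 2-fold was met by 0 of the 6 and by 3.37% of all genes.

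**Figure D1:**
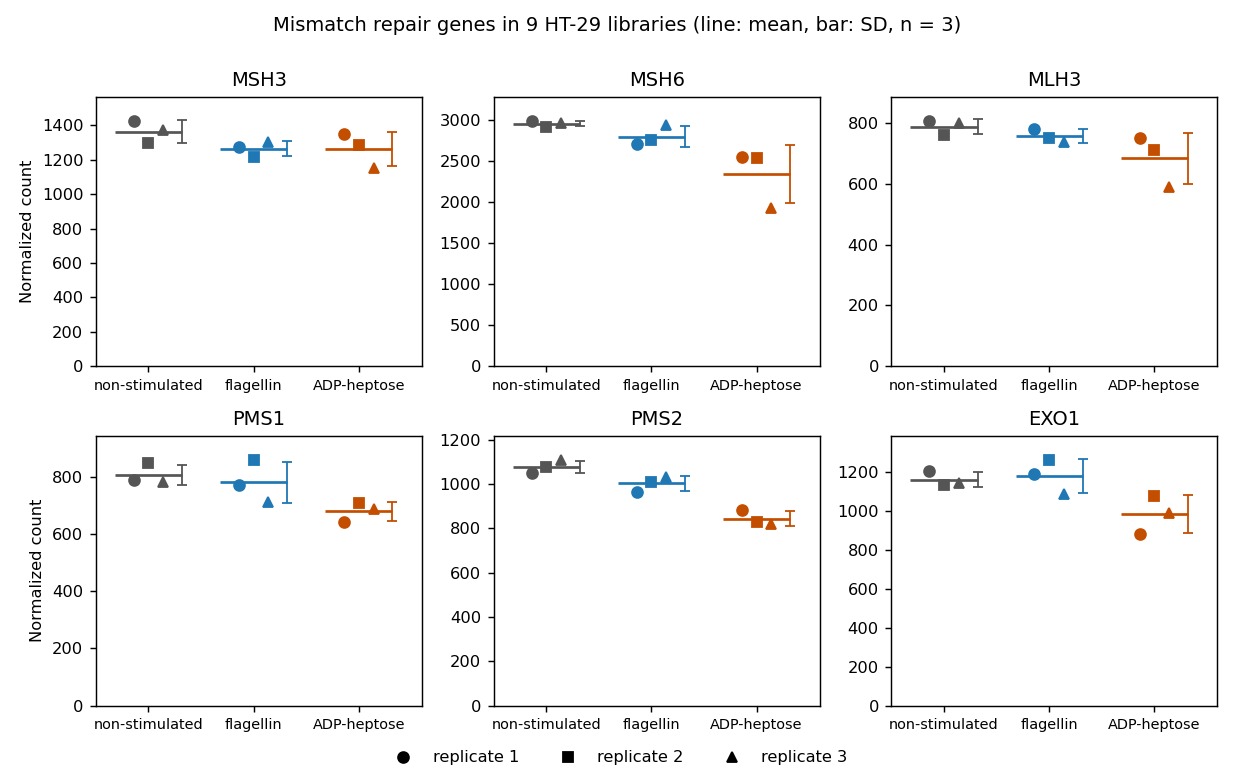
Normalized counts of the 6 mismatch repair genes (vertical axes, from 0) in the 3 non-stimulated, 3 flagellin and 3 ADP-heptose libraries, with a marker for each replicate, a line at the mean and a bar for the SD (n = 3). PMS2 lies between 818.4 and 882.3 in ADP-heptose and between 1049 and 1106 in non-stimulated libraries, and in MSH6 and MLH3 the third ADP-heptose replicate is the lowest point of the panel.

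PMS2, the MutL nuclease gene, gave the steadiest difference. Its normalized counts were 1049, 1075 and 1106 in the non-stimulated libraries, 964.8, 1011 and 1032 in the flagellin libraries and 882.3, 829.2 and 818.4 in the ADP-heptose libraries. The ADP-heptose libraries lay below all others, and the flagellin libraries lay between the other groups without overlapping either. The mean fell from 1077 ± 28.6 to 843.3 ± 34.2 with ADP-heptose (SD, n = 3), which is -0.35 on the log2 scale with an SE of 0.07 and a 95% confidence interval of -0.51 to -0.19 (edgeR adjusted p = 0.00813). It passed the test in 19 of 19 alternative settings, with values between -0.49 and -0.33 and adjusted p between 0.000275 and 0.0484. Without ADP-heptose replicate 3 the value was -0.33 (adjusted p = 0.0017).

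PMS2 has many pseudogene copies on chromosome 7 that can take or lend reads, and how reads matching several places were counted is not given in the sources used here. Of 12 listed PMS2-derived pseudogenes, PMS2CL, PMS2P1, PMS2P3 and PMS2P9 and the identifier ENSG00000067601 were at 0 in all 9 libraries. The highest was PMS2P5, with at most 130 counts in a library, while PMS2 itself had 809 to 1161. The PMS2 level is therefore uncertain by an unknown share of such reads, and their part in the difference was not tested.

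MSH6, the recognition gene of MutSα, had normalized counts of 2983, 2915 and 2966 in the non-stimulated libraries, 2700, 2750 and 2939 in the flagellin libraries and 2546, 2538 and 1927 in the ADP-heptose libraries. The non-stimulated libraries were close together, and the ADP-heptose libraries lay below every library of the other groups, replicate 3 far below the rest. The mean fell from 2954 ± 35.3 to 2337 ± 355 (SD, n = 3), and the log2 fold change was -0.34 with an SE of 0.10 and a 95% interval of -0.56 to -0.12 (edgeR adjusted p = 0.0468). Without ADP-heptose replicate 3 it was smaller and more precise, at -0.21 with an adjusted p of 0.00445. When each library was corrected for transcript length and GC content it was -0.26 (adjusted p = 0.00441).

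The MSH6 call was sensitive to the settings and held in 10 of 19, although the value stayed below 0 in each. It was lost in the other 9, among them DESeq2's size factors (adjusted p = 0.0527), a fit of only the 6 libraries compared (0.123) and the fits without any single flagellin or non-stimulated library (0.0804 to 0.147). MSH6 also shares 1785 exonic bases, 16.2% of its exons, with FBXO11, a ubiquitin ligase gene that runs on the opposite strand. FBXO11 had 1459, 1360 and 1380 normalized counts in non-stimulated and 1696, 1764 and 1003 in ADP-heptose libraries. Its own log2 fold change was 0.09 (adjusted p = 0.774), and 0.31 (adjusted p = 0.00159) without replicate 3, so FBXO11 did not fall together with MSH6 in replicates 1 and 2. Whether the counting used strand is not given in the sources used here, and the part of shared reads in the MSH6 level was not tested.

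**Figure D2:**
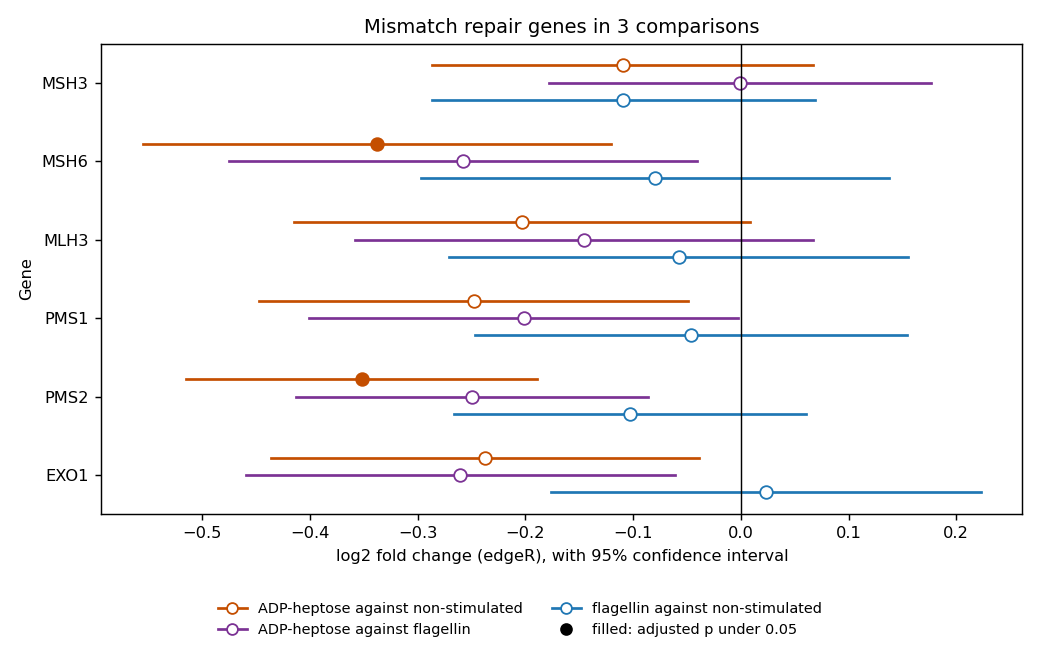
Fitted log2 fold changes (horizontal axis) of the 6 genes in 3 comparisons, with 95% confidence intervals as lines and filled points where the adjusted p was under 0.05. MSH6 (-0.34) and PMS2 (-0.35) in ADP-heptose against non-stimulated cells are the filled points, and the intervals of flagellin against non-stimulated cells include 0 for each gene.

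PMS1 and EXO1 were lower in every ADP-heptose library than in any non-stimulated library but missed the adjusted threshold. PMS1 had 789, 847.1 and 782.7 normalized counts in non-stimulated and 640.7, 707.8 and 687.7 in ADP-heptose libraries, a difference of -0.25 on the log2 scale with an SE of 0.09 (edgeR adjusted p = 0.109). EXO1, the exonuclease gene, had 1205, 1135 and 1143 in non-stimulated and 884, 1076 and 992.8 in ADP-heptose libraries, a log2 fold change of -0.24 with an SE of 0.09 (adjusted p = 0.124). Without ADP-heptose replicate 3 both values stayed at this size, -0.25 for PMS1 and -0.24 for EXO1, and both passed the test, with adjusted p of 0.0493 and 0.0415. The count of called genes then rose from 2 to 4 of 6, in a fit in which 7.07% of all genes were called lower.

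MLH3 and MSH3 gave the weakest evidence of a difference. MLH3, the MutLγ gene, had 805.5, 758.5 and 797.9 normalized counts in non-stimulated and 750.7, 710.0 and 589.8 in ADP-heptose libraries, with a log2 fold change of -0.20 and a 95% interval of -0.42 to 0.01 (edgeR adjusted p = 0.218). The groups did not overlap, yet without replicate 3 the value was -0.11 (adjusted p = 0.464). MSH3, the MutSβ gene, had 1424, 1295 and 1370 in non-stimulated and 1351, 1285 and 1154 in ADP-heptose libraries. These groups overlapped, and the log2 fold change was -0.11 with a 95% interval of -0.29 to 0.07 (adjusted p = 0.425), and -0.05 (adjusted p = 0.739) without replicate 3. In all, 5 of the 6 genes had ADP-heptose libraries wholly below the non-stimulated ones, against 14.7% of all tested genes.

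ADP-heptose replicate 3 did not move the 6 genes alike. Measured from the mean of the other ADP-heptose libraries on the log2 scale, its level differed by -0.40 for MSH6, -0.31 for MLH3 and -0.19 for MSH3, whereas PMS2 (-0.06), PMS1 (0.03) and EXO1 (0.025) were near it. MSH6 and MLH3 are the genes with the longest exons, and after correction for length and GC content the MLH3 value against non-stimulated cells was -0.13 (adjusted p = 0.268). The coefficient of variation in ADP-heptose cells was 15.2% for MSH6, 12.2% for MLH3, 9.8% for EXO1, 7.93% for MSH3, 5.07% for PMS1 and 4.06% for PMS2, where counting alone gives 1.85% to 3.44%. What set replicate 3 apart was not tested.

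Flagellin was accompanied by no detectable difference in these genes. Of the 6 genes, 0 were called by edgeR, against 0.0115% of all tested genes called lower and 0.368% called higher. DESeq2 called 0 of the 6 and 0.609% of all genes, and 0 of the 6 had an unadjusted p under 0.05 in edgeR, against 3.78% of all genes. The log2 fold changes ran from -0.11 for MSH3 to 0.02 for EXO1, each with an edgeR adjusted p of 1.0, and their median was -0.07. The 95% intervals bound what could have been missed: for MSH6 the interval was -0.30 to 0.14, for PMS2 -0.27 to 0.06 and for EXO1 -0.18 to 0.22. PMS2 was the gene whose flagellin libraries all lay below the non-stimulated ones, with a log2 fold change of -0.10, and 5.19% of all genes had this separation.

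In flagellin cells the mean was lower than in non-stimulated cells for MSH3 (1264 against 1363) and MSH6 (2796 against 2954). It was also lower for MLH3 (756.3 against 787.3) and PMS1 (780.5 against 806.3), and higher for EXO1 (1179 against 1161). For MSH3 the log2 fold change was -0.109 with flagellin and -0.1097 with ADP-heptose, and neither passed the test. MSH3 had 1272, 1216 and 1304 normalized counts, MLH3 780.7, 750.6 and 737.5, PMS1 772.4, 857 and 712, and EXO1 1190, 1261 and 1087. Each of these groups overlapped with its non-stimulated counterpart. The ADP-heptose and flagellin comparisons use the same non-stimulated libraries, so their values are not independent of each other.

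The direct comparison of the stimuli tested whether the responses differed. PMS2 had a log2 fold change of -0.25 in ADP-heptose against flagellin cells, with an SE of 0.07 and a 95% interval of -0.41 to -0.09. Its edgeR adjusted p was 0.0658, and DESeq2 called it lower (0.0272). DESeq2 called 4.1% of all genes lower and 10.9% in either direction. EXO1 had -0.26 (adjusted p = 0.117), MSH6 -0.26 (0.155), PMS1 -0.20 (0.23), MLH3 -0.15 (0.432) and MSH3 -0.0007 (0.996). By edgeR, 0 of the 6 genes were called, against 2.76% of all genes called lower and 5.4% called higher, although 4 of the 6 had an unadjusted p under 0.05 and lay lower (9.48% of all genes). The ADP-heptose libraries did not overlap with the flagellin libraries, and lay below them, for 4 of the 6 genes (12.8% of all genes). Without ADP-heptose replicate 3, EXO1 passed the test in this comparison, at -0.255 with an adjusted p of 0.0326, and PMS2 (-0.22, 0.0516) and PMS1 (-0.20, 0.155) did not. In the same fit MSH6 shrank to -0.125 (0.135) and MLH3 to -0.04 (0.83), and MSH3 turned to 0.07 (0.59).

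**Figure D3:**
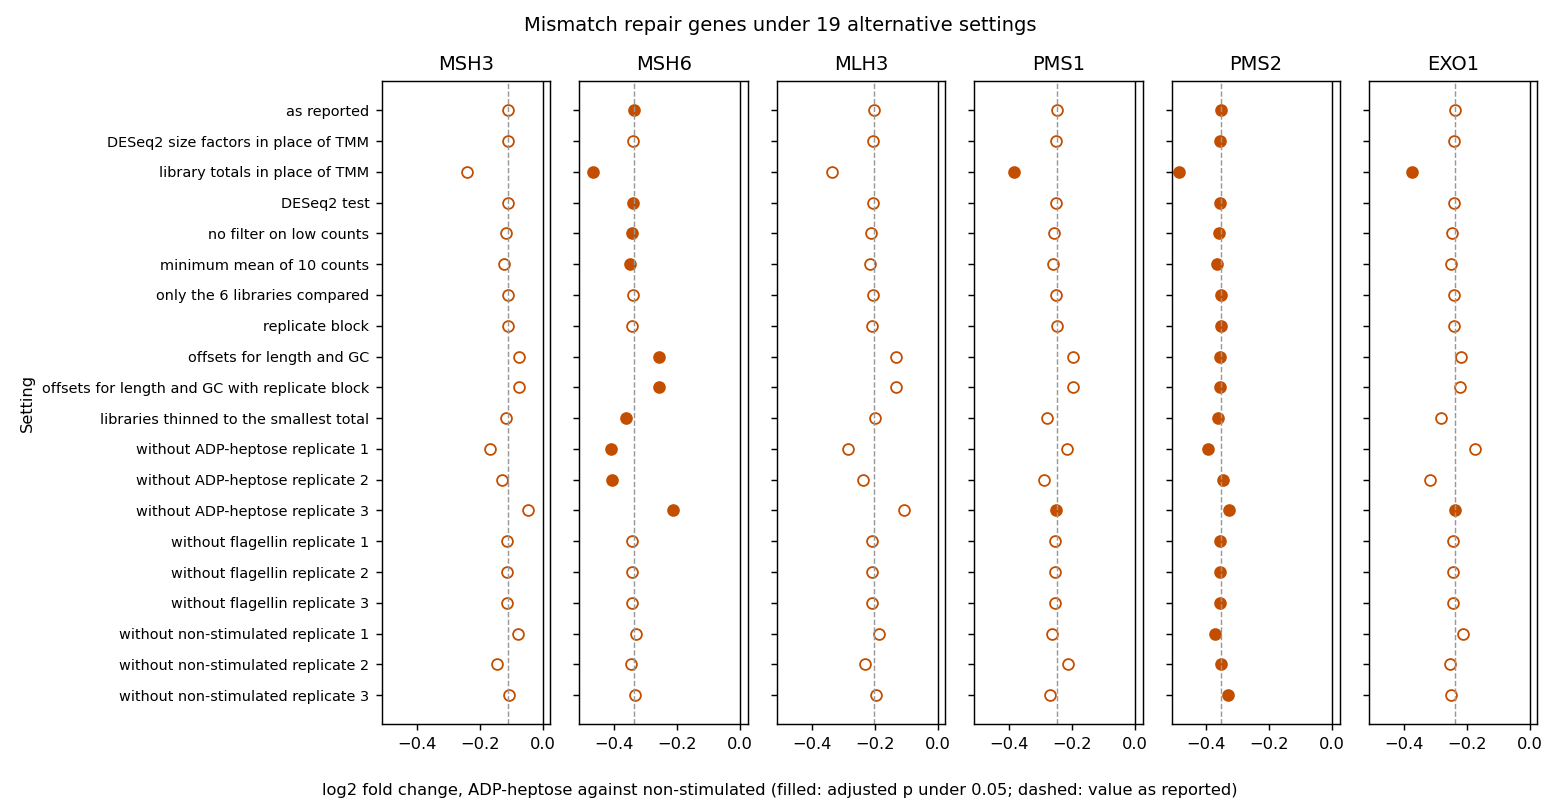
Log2 fold changes of each gene in ADP-heptose against non-stimulated cells (horizontal axes) as reported and under 19 alternative settings (vertical axis), with filled points where the adjusted p was under 0.05. PMS2 is filled in every row, MSH6 in the reported fit and 10 of 19 alternatives, and without ADP-heptose replicate 3 the MSH6, MLH3 and MSH3 points move towards 0.

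Ratios between genes in the same library do not depend on the scaling of libraries. MSH6 outnumbered MSH3 2.09, 2.25 and 2.16 times in the non-stimulated libraries, 2.12, 2.26 and 2.25 times in the flagellin libraries and 1.89, 1.97 and 1.67 times in the ADP-heptose libraries. The ADP-heptose ratios were thus the lowest, replicate 3 the lowest of these, and did not overlap with the non-stimulated ratios. The means were 1.84 ± 0.16 and 2.17 ± 0.079 (SD, n = 3), and a two-sided exact permutation test gave p = 0.1, the smallest value that 3 against 3 libraries allow. The ratios of PMS2 to PMS1, PMS2 to MLH3, PMS1 to MLH3, EXO1 to MSH6 and MSH6 to PMS2 overlapped between these groups, with exact permutation p between 0.3 and 1.0 in this family of 6 ratios. These are ratios of read counts, so their size also reflects transcript length.

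The genes that work beside these in the repair reaction were described with a fixed list of 18. It holds the sliding clamp PCNA, its loaders RFC1 to RFC5, the single-strand binding proteins RPA1 to RPA3, polymerase delta (POLD1 to POLD4), ligase LIG1, and HMGB1, SETD2, FAN1 and MCM9. In ADP-heptose against non-stimulated cells, 1 of the 18 (5.56%) was called lower, near the 4.42% of all genes, and 0 were called higher. At an unadjusted p under 0.05 in edgeR, 4 of the 18 were lower, against 11.5% of all tested genes, and 1 was higher. The median log2 fold change was -0.04. The range was wide, from -0.48 to 0.43, with 10 genes below 0 and 8 above. The median of the set was thus close to that of all genes, 0.0087, while the median of the 6 mismatch repair genes was -0.24. The 6 genes and the list were chosen with earlier results of these data known, so this contrast is a description only.

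POLD3, a subunit of polymerase delta, was the gene called lower. Its normalized counts were 1675, 1524 and 1694 in non-stimulated, 1504, 1521 and 1675 in flagellin and 1228, 1327 and 1252 in ADP-heptose libraries. The ADP-heptose libraries lay below the rest, and the log2 fold change was -0.36 with an SE of 0.08 (edgeR adjusted p = 0.00924). It missed the threshold without non-stimulated replicate 1 (-0.34, adjusted p = 0.0507) or replicate 3 (-0.33, adjusted p = 0.0562). POLD3 was also lower than in flagellin cells, at -0.30 (adjusted p = 0.0323), a call lost in the fit of only the 6 libraries compared (0.0854), without ADP-heptose replicate 1 (0.103), without any of the flagellin libraries (0.067 to 0.17) and without non-stimulated replicate 1 (0.0592) or 3 (0.0574).

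Of the other polymerase delta genes, POLD4 had a value of the opposite sign, 0.43 (edgeR adjusted p = 0.0828), and 0.245 (0.137) without ADP-heptose replicate 3. MCM9, a helicase gene linked to mismatch repair, had -0.48 (0.0544), and -0.31 (0.0501) without that library. FAN1, a nuclease gene, had -0.43 (0.117), and -0.24 (0.0826) without it, so these differences were larger with replicate 3 in the fit. PCNA had 0.08 (0.578). In flagellin against non-stimulated cells, 0 of the 18 were called by edgeR or DESeq2. An unadjusted edgeR p under 0.05 was met by 0 of the 18 and by 3.78% of all tested genes.

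**Figure D4:**
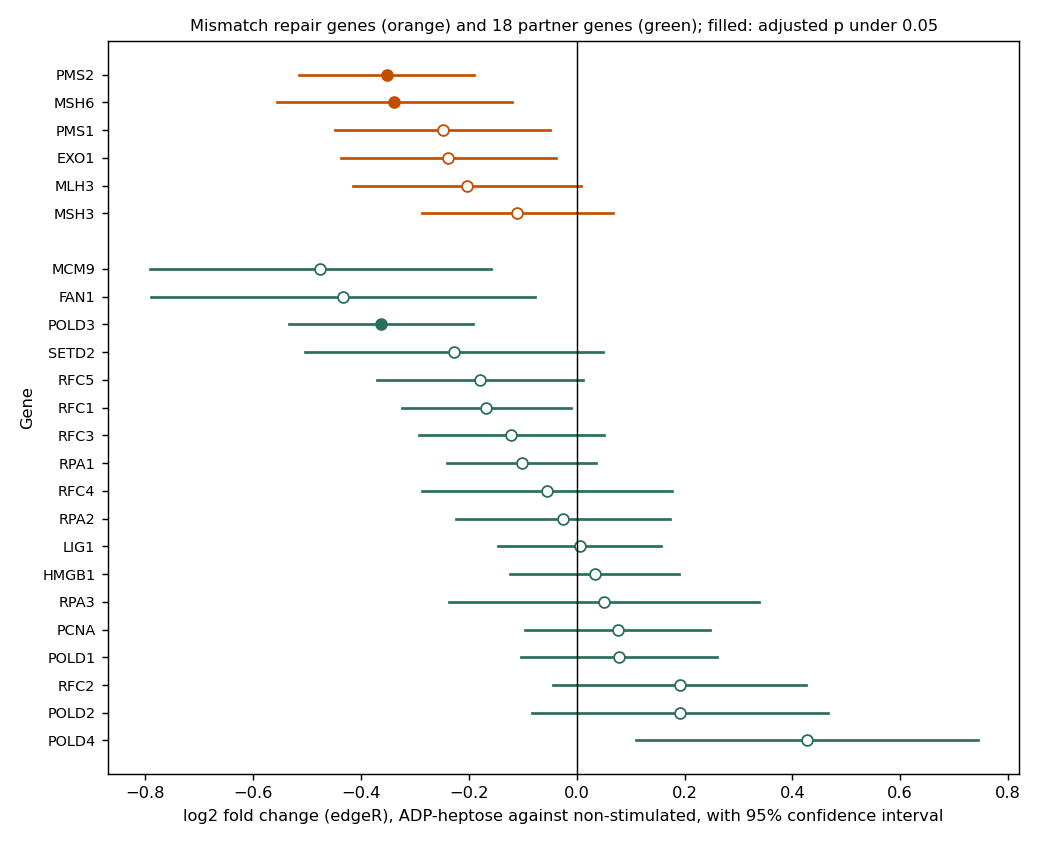
Log2 fold changes in ADP-heptose against non-stimulated cells (horizontal axis) with 95% confidence intervals, for the 6 mismatch repair genes in orange and the 18 partner genes in green, filled where the adjusted p was under 0.05. The 6 mismatch repair genes lie between -0.35 and -0.11, and the partner genes lie on both sides of 0 with POLD3 as the filled point.

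Other lists of repair and replication genes were described in the same comparison, and the genes named here were chosen after their values were seen. Of 18 homologous recombination genes, 4 (22.2%) were called lower, against 4.42% of all tested genes, and the median was -0.10. They were BARD1 (-0.60) and RMI1 (-0.53), which were called in 9 of 9 fits that left out a library, and XRCC2 (-0.36) and MRE11 (-0.24), called in 3 and 1 of 9. Without ADP-heptose replicate 3, XRCC2 was at -0.24 (edgeR adjusted p = 0.00359), and over the 9 fits the adjusted p reached 0.118 for XRCC2 and 0.143 for MRE11.

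The remaining lists had shares near that of all genes. Of 18 base excision repair genes, 1 (5.56%) was called lower (NEIL3, a glycosylase gene, at -0.94), with a median of 0.02, and this call held in 9 of 9 fits. Of 17 nucleotide excision repair genes tested, 1 (5.88%) was called lower (ERCC4, at -0.71) and 1 higher (ERCC1, at 0.38, against 7.48% of all genes), with a median of -0.02. ERCC4 missed the threshold without non-stimulated replicate 1 (adjusted p = 0.0866), and ERCC1, at 0.23 without ADP-heptose replicate 3, was called in 3 of 9 fits. Of 22 S phase genes, 1 (4.55%) was called lower (CCNE2, at -0.89, called in 1 of 9 fits), with a median of -0.03. The median of the 6 mismatch repair genes, -0.24, was below those of these lists, and no test of the lists against each other was made. Here too the 6 genes and the lists were chosen with earlier results of these data known.

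The meiotic MutS genes MSH4 and MSH5, relatives of MSH3 and MSH6 that act in crossing over, were at the other end of abundance. MSH4 had at most 5 counts in a library and was not tested. MSH5 had 23 to 112 counts, and its log2 fold change with ADP-heptose was 0.09 (edgeR adjusted p = 0.859).

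ORMDL1, a gene on the strand opposite PMS1, shares 103 exonic bases with it, 1.9% of the PMS1 exons, and had a log2 difference of -0.06 (edgeR adjusted p = 0.643) beside the PMS1 value of -0.25. No annotated gene shares exonic bases with MLH3, PMS2 or EXO1 in GENCODE 29.

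Across the 9 libraries, the profiles of some pairs among the 6 genes were closer than those of others. Pearson's r of log2 normalized counts was 0.926 between MSH6 and MLH3, 0.893 between PMS1 and EXO1 and 0.854 between MSH6 and PMS2, but 0.037 between MSH3 and PMS1 and 0.065 between MSH3 and EXO1. These values describe 9 libraries in 3 groups that share the same ADP-heptose replicate 3, and they carry no test. Among 8254 genes whose average log2 CPM was 4 or more, the profile nearest to MSH6 was that of ADD3 (r = 0.995), followed by MOB3B (0.994) and SINHCAF (0.993). NOL8 (0.981), COA7 (0.98) and LPCAT1 (0.977) were nearest to PMS2.

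FBXO41 (0.983), AGK (0.983) and SUSD6 (0.982) came nearest to MLH3, and CAT (0.942), CYP20A1 (0.928) and GPATCH1 (0.922) to PMS1. NLRX1 (0.964), TEF (0.912) and NME6 (0.911) were nearest to EXO1. MSH3 had the least close neighbours, GSTCD (0.917), MAP3K9 (0.91) and UBE2G1 (0.902). No gene appeared in more than 1 of these lists.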

How the data were processed

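Poly(A) RNA of HT-29 cells was sequenced in 9 libraries as paired reads of 150 bases. The deposited table holds raw counts per gene, which the authors made with HISAT2 and featureCounts; versions, genome build, annotation, strandedness and the handling of reads that match several places are not given in the sources used here. The table has 62972 lines, and 232 identifiers listed more than once with identical counts were used once. The main test was edgeR 4.0.16 under R 4.3.3 (TMM scaling, filterByExpr by group, robust quasi-likelihood F test, all 9 libraries, 17412 genes), with Benjamini-Hochberg adjustment over all genes and a threshold of 0.05. Normalized counts are counts per effective library size, brought back to the geometric mean size. Confidence intervals are at 95%. Alternatives were DESeq2 1.42.0 (size factors and Wald test), library totals, other filters, fewer libraries, a replicate block, a 2-fold threshold, offsets for length and GC content (splines with 4 degrees of freedom), thinned counts and leaving out each library. Tested on simulated data for ADP-heptose against non-stimulated cells (17092 genes), the fit recovered 74 of 100 genes changed by 1 and 34 of 100 changed by 0.5 on the log2 scale, with 6.09% false calls. The changed genes were drawn from all genes past the filter, and no library was simulated as standing apart. Their log2 errors had an SD of 0.314 and 0.337, against SEs of 0.07 to 0.10 for the 6 genes. These shares therefore do not describe the 6 genes.

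Groups came from the treatment labels. The text names the 6 genes, partner genes past the threshold with up to 4 examples, genes or pseudogenes that can share reads, and the 3 closest profiles per gene. The 6 genes and all lists were chosen with earlier results of these data known. Positions and lengths came from GENCODE 29, which holds 58274 (92.9%) of the identifiers, and promoter windows from RefSeq. Protein sequences were not used here, and the study's 3-condition model (EBSeq) was not run. Plots used matplotlib 3.10.9 (Python 3.11.15).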

Additional observations from a re-analysis of the deposited data

How the results depend on the processing

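In ADP-heptose against non-stimulated cells, all 6 genes kept values below 0 in 19 of 19 alternative fits. PMS2 kept an adjusted p under 0.05 in each, but did not meet the 2-fold threshold. The count of called genes (2) became 1 with DESeq2's size factors, in a fit of the 6 libraries compared and with the replicate block, 4 with library totals, 1 to 4 when a library was left out and 0 with the 2-fold threshold. Library totals moved the median of all genes to -0.13 and the share of calls that were higher from 62.8% to 32.7%, and offsets for length and GC content moved it to 47.6%. Genes called lower over the whole table numbered 770, 433 in the fit of 6 libraries, 1886 with library totals, 1521 with the offsets and 392 (without non-stimulated replicate 3) to 1270 (without ADP-heptose replicate 3) when a library was left out. Against flagellin the count (0) became 2 with library totals, 1 with the DESeq2 test, 2 with the offsets and 0 to 1 when a library was left out. The partner count (1) against non-stimulated cells became 3 with library totals, 3 with DESeq2, 4 with no filter, 2 with the offsets (with or without the block), 0 to 2 when a library was left out and 0 with the 2-fold threshold. Against flagellin the partner count (1) became 2 with no filter, the offsets (with or without the block) or thinning, 0 in 6 libraries, with the block or with the 2-fold threshold, and 0 to 2 when a library was left out. The causes were not tested.

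The sign turned for small values. For MSH3 against flagellin it was 0.00181 with no filter, 0.0174 with the offsets, 0.0176 with the offsets and block, and -0.0527 to 0.071 over the fits that left out a library (above 0 without ADP-heptose replicate 3, 0.00553 without flagellin replicate 1 and 0.0233 without flagellin replicate 3). For EXO1 with flagellin it was -0.0182 after thinning and -0.0359 (without flagellin replicate 2) to 0.0721 when a library was left out, and for PMS1 with flagellin 0.00896 without flagellin replicate 3.

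Deviations of same-numbered libraries from their group means had correlations of -0.447 to 0.293. ADP-heptose replicate 3, which stands apart, weighs on those that involve its group, so they cannot show whether the libraries were paired. The replicate block is therefore given as an alternative fit and not as a paired result. With the block, MSH6 against non-stimulated cells was at -0.34 (adjusted p = 0.0861) and POLD3 against flagellin at -0.30 (0.0758), so both calls were lost. Counting alone gives the 6 genes a coefficient of variation of 1.85% to 3.88%, and the observed one was 1.2% to 15.2%.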
